A study of Mus musculus with 5 samples.

Results

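The Hox genes of the mouse encode homeodomain transcription factors and lie in 4 clusters, HoxA on chromosome 6, HoxB on chromosome 11, HoxC on chromosome 15 and HoxD on chromosome 2. Their level was described in whole pituitary glands of embryos at e12.5, when the gland is still a pouch of progenitors. The genes were taken by name from the table of all genes, as every symbol made of Hox, a cluster letter from a to d and a paralogue number, with the longest listed region kept for each. This gave 36 Hox genes of 20097 genes in all, of 39 Hox symbols in the reference annotation. The genes Hoxa3, Hoxc5 and Hoxd4 were not analysed here. The 2 KO libraries, numbered 13 and 16, came from embryos with the genotype Itgb1 f/f; Pitx1-cre, and the 3 control libraries, numbered 9, 10 and 12, from Itgb1 f/f littermates without Cre. All 5 embryos were of the B6;129 strain and carried floxed alleles of Itgb1, the gene of integrin beta 1. Pitx1-cre acts in the oral ectoderm and its derivatives, the pituitary among them, so that a dissected gland also holds cells without Cre, although the labels name epithelial pituitary cells. In such bulk samples fewer cells of a type and less RNA per cell cannot be told apart.

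Hox genes give positions along the body axis their identity. They are switched on in the order in which they lie in a cluster, low paralogue numbers in the hindbrain and higher ones further back in the trunk, limbs and tail. The most anterior limit of Hox expression lies in the hindbrain and the branchial arches, and the forebrain, the front of the head and the pouch that becomes the anterior pituitary are Hox-free territory in vertebrates. Where the genes are off, Polycomb complexes keep the clusters closed, and where they are on, the proteins bind DNA with TALE homeodomain partners such as the Meis proteins.

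None of the 36 Hox genes stood above a background rate per kilobase in all 3 control libraries, nor in all 5 libraries. The summed Hox reads were denser than those of the olfactory and vomeronasal receptor genes, which serve here as background. They were 0.726 to 0.974 times as dense as those of the kallikrein genes, a second background family. The kallikreins had the highest level of 9 families and were chosen after the values were seen. Levels followed the length of the listed region, and the highest values lay in library KO 16, where the level of the receptor genes was highest too. The comparison of KO with control called none of the Hox genes.

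The Hox genes and both background families differ in the GC content of their transcripts, a property that is set beside their levels further on. The 250 bases in front of the start of 4 genes are printed as examples of sequence, and they do not show that transcript property. Hoxb1 and Hoxa2 are Hox genes of the hindbrain with high values per kilobase, and Klk10 and Olfr119 lie nearest to the median GC content of the kallikrein and the receptor stretches. They are RefSeq sequences of the build GRCm38.p6, at chr11:96365508-96365757 on the plus strand, chr6:52164832-52165081 on the minus strand, chr7:43780804-43781053 on the plus strand and chr17:37696435-37696684 on the plus strand. Capitals mark the CpG pairs, of which there were 7 in Hoxb1, 6 in Hoxa2, 2 in Klk10 and 1 in Olfr119. The GC content was 59.2%, 46.4%, 56.0% and 37.2% in the same order. The stretches of Hoxa9 and Hoxd11, not printed, held 3 and 2 CpG pairs at a GC content of 49.6% and 44.8%. The Hox genes printed were not picked by a median, so the 4 stretches give no contrast between families.
Hoxb1: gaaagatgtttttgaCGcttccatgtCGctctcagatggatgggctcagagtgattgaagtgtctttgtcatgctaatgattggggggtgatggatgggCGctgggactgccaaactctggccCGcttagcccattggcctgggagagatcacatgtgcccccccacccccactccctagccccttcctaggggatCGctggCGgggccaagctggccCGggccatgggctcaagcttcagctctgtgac
Hoxa2: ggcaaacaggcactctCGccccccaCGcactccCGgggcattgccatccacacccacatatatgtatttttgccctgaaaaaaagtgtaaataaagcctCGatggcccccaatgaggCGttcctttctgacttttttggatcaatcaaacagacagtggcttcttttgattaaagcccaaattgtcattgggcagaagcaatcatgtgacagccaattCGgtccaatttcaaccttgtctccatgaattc
Klk10: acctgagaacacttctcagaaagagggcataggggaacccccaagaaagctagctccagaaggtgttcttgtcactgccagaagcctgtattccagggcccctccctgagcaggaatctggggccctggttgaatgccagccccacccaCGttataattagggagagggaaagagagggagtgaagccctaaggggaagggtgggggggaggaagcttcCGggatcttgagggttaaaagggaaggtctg
Olfr119: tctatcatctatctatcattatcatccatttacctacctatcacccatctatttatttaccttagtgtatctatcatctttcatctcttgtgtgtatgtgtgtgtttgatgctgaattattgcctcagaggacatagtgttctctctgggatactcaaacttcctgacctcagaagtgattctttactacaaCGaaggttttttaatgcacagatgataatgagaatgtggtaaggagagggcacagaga
Such stretches were found for 20 of the 36 Hox genes, under 80%, so that a comparison of promoter composition over the Hox genes is void and is not given.

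Levels are given in tags per 10000000 total tags of a library, or as tags per kilobase where genes are compared. A tag value of 0.91 is 1 read, and a value of 0 allows up to 2.73 tags, the equivalent of 3 reads. Reads over all listed genes numbered 5507288 and 4480809 in libraries KO 13 and KO 16, against 5806107, 5445240 and 6143263 in control libraries 9, 10 and 12. Each interval is an exact Poisson one at 95% and covers only the error of counting. The targeted gene Itgb1 held 446.36 and 186.36 tags in libraries KO 13 and KO 16, against 272.73, 426.36 and 430.91 in control libraries 9, 10 and 12. Library KO 13 was thus above every control and KO 16 below. The region spans the whole gene and not the deleted part alone, so this level does not check the labels, and KO is used for the label. Pituitary markers were present, since 9 of 9 genes of the pituitary primordium list were above background in all 3 controls, where 57.8% of all genes were. In KO 16 9 of 9 were above it too, and in KO 13 8 of 9. The homeodomain gene Six6, for example, held 282.73 and 54.55 tags in libraries KO 13 and KO 16, against 71.82, 153.64 and 119.09 tags in control libraries 9, 10 and 12. Pitx1, the oral ectoderm regulator whose promoter drives Cre, held 283.64 and 98.18 tags in KO 13 and KO 16, against 97.27, 137.27 and 148.18 tags in the controls in the same order.

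The background was read from 405 autosomal olfactory and vomeronasal receptor genes, whose listed regions cover 4244.752 kb. They carried 0.472 and 1.50 tags per kilobase in libraries KO 13 and KO 16, against 0.257, 0.395 and 0.156 in control libraries 9, 10 and 12. A gene was counted as above background in a library where the lower bound of its interval, per kilobase, exceeded this rate. By this rule 6 and 17 Hox genes were above background in KO 13 and KO 16, against 4, 3 and 1 in control libraries 9, 10 and 12. These are 16.7% and 47.2% of the 36 Hox genes in the KO libraries, against 11.1%, 8.33% and 2.78% in the controls. Of all 20097 genes, 69.0% and 71.9% passed in KO 13 and KO 16, against 66.0%, 68.8% and 65.5% in the controls. The Hox genes thus passed at a smaller share than genes at large in each of the 5 libraries. A short region holds few reads and needs a larger excess to pass, and 25 of the 36 Hox regions were shorter than 3 kb. The shares of all genes, here and below, are over regions of any length and are no comparison at like length. The receptor genes passed their own rate at 4.44% and 7.90% in KO 13 and KO 16, against 1.98%, 3.70% and 2.22% in the controls.

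No Hox gene was above background in all 3 controls, where 57.8% of all genes were, and 5 were above it in both KO libraries, where 59.6% of all genes were. These 5 were Hoxa4, Hoxb1, Hoxb3, Hoxc9 and Hoxc11. The most libraries in which a single Hox gene passed was 3, reached by Hoxa4, Hoxb3 and Hoxc9, and 15 Hox genes passed in none. In KO 16 alone 10 Hox genes passed. Without library KO 13, the count for the KO group was 17. Over the controls 8 different Hox genes passed, each in a single control library: Hoxa11, Hoxb3, Hoxd3 and Hoxd10 in control 9, Hoxa4, Hoxa9 and Hoxb5 in control 10, and Hoxc9 in control 12.

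**Figure D1:**
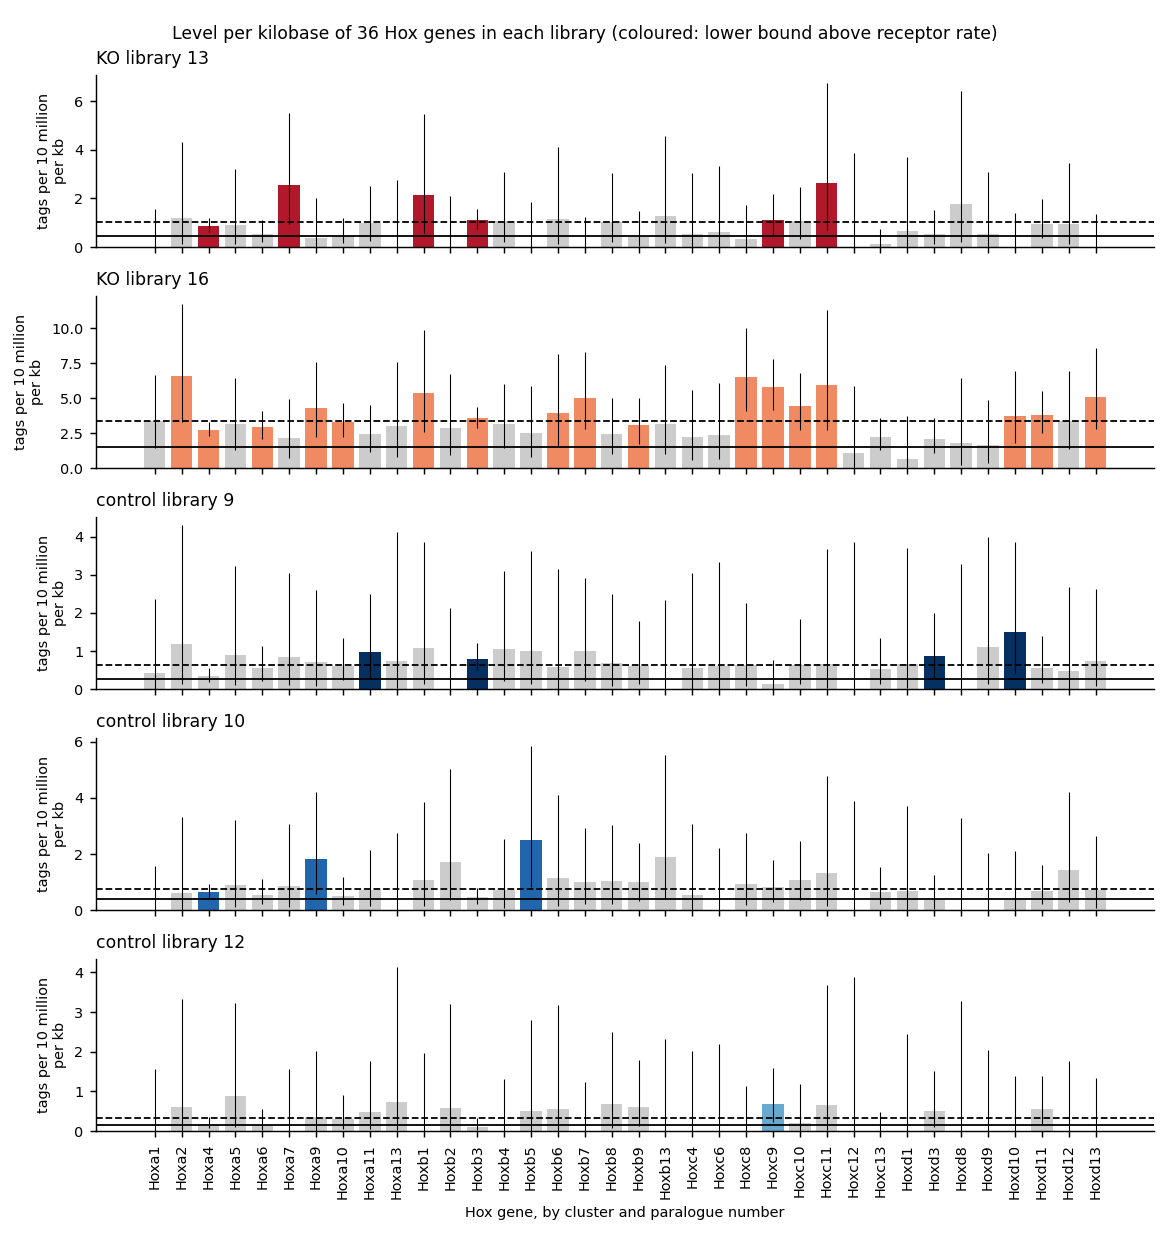
Level of each of the 36 Hox genes in tags per 10000000 per kilobase, ordered by cluster and paralogue number, in libraries KO 13, KO 16 and control 9, 10 and 12 from top to bottom (each panel has its own scale). Bars are values with exact Poisson 95% intervals, coloured where the lower bound lies above the rate of the receptor genes (solid line); the dashed line is the rate of the kallikrein genes. Coloured bars number 6 and 17 in the KO panels and 4, 3 and 1 in the control panels.

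Most Hox genes rested on a handful of reads. A level of 0 was listed for 8 and 0 Hox genes in libraries KO 13 and KO 16, against 4, 6 and 17 in control libraries 9, 10 and 12. The median Hox gene lay at 0.633 and 3.14 tags per kilobase in KO 13 and KO 16, against 0.648, 0.719 and 0.135 in the controls. Library KO 13 was thus within the range of the controls and KO 16 above all of them. The highest Hox gene per kilobase was Hoxc11 in KO 13, at 2.65, and Hoxa2 in KO 16, at 6.57. In the controls it was Hoxd10 at 1.51 in library 9, Hoxb5 at 2.51 in library 10 and Hoxa5 at 0.895 in library 12, a different gene in each library. Of the 9 pituitary primordium genes, 7 and 4 lay above the highest Hox gene per kilobase in KO 13 and KO 16, against 8, 8 and 9 in the controls. Among the 13541 autosomal genes with regions as long as those of Hox genes, the median level was 1.78 and 2.79 tags per kilobase in KO 13 and KO 16, against 0.913, 1.40 and 0.927 in the controls. Above this median lay 4 and 23 Hox genes in KO 13 and KO 16, against 8, 5 and 0 in the controls.

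The tag values of Hox genes followed region length. The listed regions ran from 0.865 kb for Hoxc12 to 43.206 kb for Hoxa4, with a median of 2.284 kb, and 25 of the 36 were shorter than 3 kb. Spearman's rho between level and length over the 36 Hox genes was 0.53 and 0.88 in KO 13 and KO 16, against 0.85, 0.78 and 0.56 in control libraries 9, 10 and 12. Over all genes it was 0.73 and 0.94 in KO 13 and KO 16, against 0.76, 0.76 and 0.68 in the controls. Genes of 1 library share its depth and are not replicates, so these are descriptions.

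**Figure D2:**
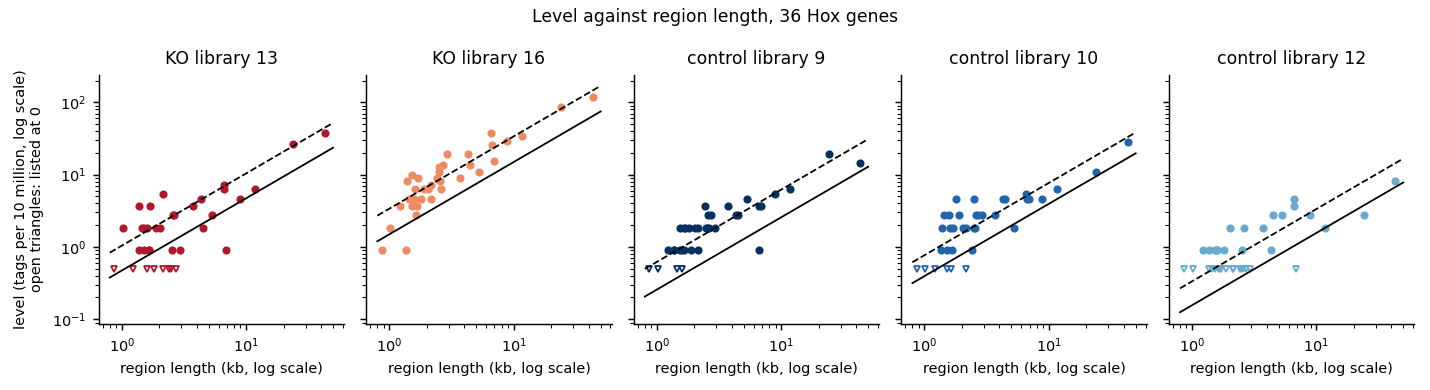
Level of each Hox gene (tags per 10000000, log axis) against the length of its listed region (kb, log axis), one panel per library with KO 13 and KO 16 left of the controls. The solid line is the level that a region of that length has at the receptor rate, the dashed line at the kallikrein rate, and open triangles are genes listed at 0; the points run along the lines in each panel, with a rho of 0.53 in KO 13 and 0.88 in KO 16 and of 0.56 to 0.85 in the controls.

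Over a joint length of 172.475 kb, the Hox regions held 151 and 626 reads in KO 13 and KO 16, against 112, 132 and 46 reads in control libraries 9, 10 and 12. The receptor rate gives 89.5 and 283.9 reads for that length in KO 13 and KO 16, against 48.8, 74.9 and 29.6 reads in the controls. The Hox regions were therefore 1.69 times (interval 1.43 to 1.98) and 2.20 times (2.04 to 2.38) as dense as the receptor genes in KO 13 and KO 16. In control library 9 they were 2.29 times (1.89 to 2.76) as dense, in control 10 1.76 times (1.47 to 2.09) and in control 12 1.56 times (1.14 to 2.07). Each of these intervals lies above 1, and the KO values fall among those of the controls. So the absolute density differed between libraries by more than the density relative to the receptor genes did: it was 0.796 and 3.30 tags per kilobase in KO 13 and KO 16, against 0.590, 0.696 and 0.242 in the controls. These sums hold some reads more than once, since the Hoxa4 region contains Hoxa5 and shares 10744 bp with Hoxa6. With the shortest region kept for the names listed more than once, the ratios were 1.65 and 2.36 in KO 13 and KO 16, against 2.64, 1.90 and 1.70 in the controls.

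Which family serves as background changes this reading. A set of 9 families of tissue-restricted genes, chosen after their values were seen, was set beside the Hox genes, from killer cell lectin-like receptors to kallikreins. Their pooled levels ran from 0.462 to 1.04 tags per kilobase in KO 13 and from 1.21 to 3.39 in KO 16, against 0.213 to 0.621, 0.307 to 0.768 and 0.125 to 0.334 in control libraries 9, 10 and 12. The kallikreins, serine proteases of which tissue kallikrein is known from the adult rat pituitary, with a median transcript GC content of 51.5%, had the highest pooled level of the 9 in each library. The receptor genes have a median of 38.8% and the Hox genes one of 53.7%, above all 9 families. Over the 9 families, Spearman's rho between median GC content and pooled level was 0.85 and 0.83 in KO 13 and KO 16, against 0.83, 0.85 and 0.57 in the controls, a description of 9 points that share each library. Relative to the kallikrein rate the Hox regions stood at 0.764 and 0.974 in KO 13 and KO 16, against 0.950, 0.906 and 0.726 in the controls. With the shortest regions the ratios were 0.747 and 1.04 in KO 13 and KO 16, against 1.10, 0.974 and 0.792 in the controls, so they lay on both sides of 1. With this rate 0 and 2 Hox genes were above background in KO 13 and KO 16, against 0, 1 and 0 in the controls. The share of all genes at the kallikrein rate is not given, and a higher rate is harder to pass with few reads. By the receptor rate 19.2% and 76.9% of the kallikreins themselves passed in KO 13 and KO 16, against 30.8%, 23.1% and 15.4% in the controls. These shares were larger than those of the Hox genes in each library. The part of GC content in the Hox level was not tested.

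**Figure D3:**
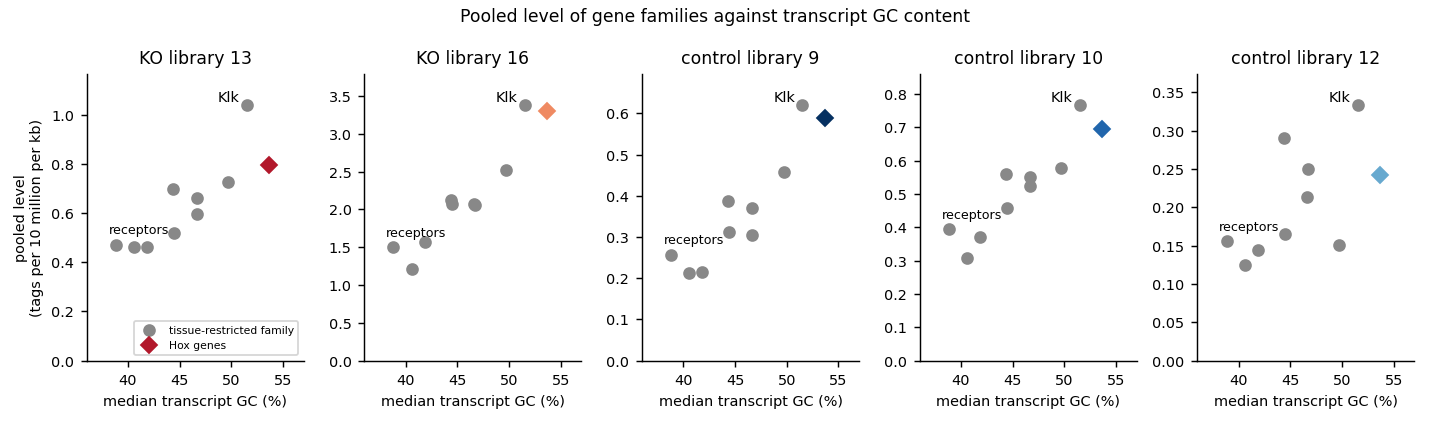
Pooled level of gene families (tags per 10000000 per kilobase) against their median transcript GC content (%), one panel per library with KO 13 and KO 16 left of the controls; each panel has its own scale. Grey circles are 9 families of tissue-restricted genes and the diamond is the 36 Hox genes, which lie at a GC content of 53.7% and below the kallikreins (Klk) in each panel.

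Seen by cluster, no cluster stood apart in the same way in all libraries. HoxA, with 10 listed genes, was 1.68 and 1.98 times as dense as the receptor genes in KO 13 and KO 16, against 1.92, 1.63 and 1.55 times in control libraries 9, 10 and 12. With the shortest regions, which count no HoxA read more than once, the ratios of HoxA were 1.51 and 2.26 in KO 13 and KO 16, against 2.76, 1.97 and 2.17 in the controls. KO 16 was thus above every control in HoxA by the longest regions and among the controls by the shortest. HoxB, with 10 genes, stood at 1.95 and 2.35 in KO 13 and KO 16, against 2.94, 2.07 and 1.44 in the controls. For HoxC, with 8 genes, the ratios were 1.55 and 2.77 in KO 13 and KO 16, against 1.76, 1.94 and 1.56 in the controls. In HoxC KO 16 was above every control, and the intervals of KO 16 (2.29 to 3.31) and of its nearest control, library 10 (1.22 to 2.94), overlap. HoxD, also of 8 genes, had ratios of 1.35 and 2.05 in KO 13 and KO 16, against 2.95, 1.42 and 1.79 in the controls.

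**Figure D4:**
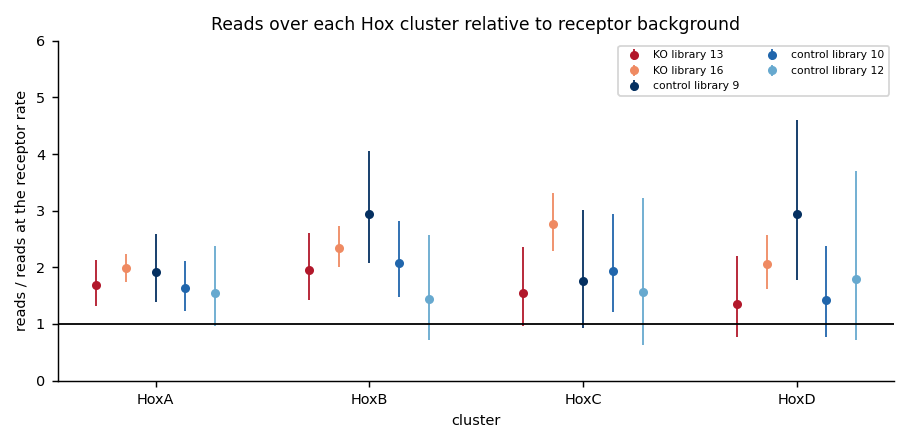
Reads over the listed genes of each Hox cluster, divided by the reads that the receptor rate gives for the same length, with exact Poisson 95% intervals, for libraries KO 13, KO 16 and control 9, 10 and 12 from left to right in each cluster. The line at 1 is the receptor rate; the points lie between 1.35 and 2.95 and the intervals of KO and control libraries overlap in each cluster.

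The order along the body axis was not seen as a gradient of level. Genes of paralogue numbers 1 to 3, which reach furthest forward, stood at 2.00 and 2.28 times the receptor rate in KO 13 and KO 16, against 3.01, 1.29 and 1.24 times in control libraries 9, 10 and 12. Those numbered 4 to 8 stood at 1.74 and 2.00 in KO 13 and KO 16, against 1.91, 1.81 and 1.28 in the controls. Genes numbered 9 to 13, the posterior ones, stood at 1.41 and 2.44 in KO 13 and KO 16, against 2.34, 2.01 and 2.13 in the controls. The anterior genes were the densest of the 3 classes in KO 13 and control 9, and the posterior ones in the other 3 libraries. With the shortest regions the central genes were the densest in control 10, at 2.55, so this order turned with the region kept.

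Of the anterior genes, Hoxa2 specifies the skeleton of the second branchial arch. Its listed region (mm9 chr6:52112910-52114430) is 1.521 kb long. Hoxa2 held 1.82 and 10 tags in KO 13 and KO 16, against 1.82, 0.91 and 0.91 tags in control libraries 9, 10 and 12. The value in KO 13 equals that in control 9 and KO 16 is the highest. Hoxb1 (mm9 chr11:96227872-96229567), needed for the identity of facial motor neurons in the hindbrain, held 3.64 and 9.09 tags in KO 13 and KO 16, against 1.82, 1.82 and 0 tags in the controls. Both KO libraries were above every control, on 4 and 10 reads. Per kilobase Hoxb1 stood at 4.55 and 3.58 times the receptor rate in KO 13 and KO 16, against 4.17, 2.72 and 0 times in the controls, which overlaps. Hoxb3, also a gene of the hindbrain and the pharyngeal region, has the longest listed region of HoxB (mm9 chr11:96185240-96209244, 24.005 kb). It held 26.36 and 85.45 tags in KO 13 and KO 16, against 19.09, 10.91 and 2.73 tags in the controls. Hoxb3 was above every control in both KO libraries by tags, while per kilobase it stood at 2.33 and 2.38 times the receptor rate in KO 13 and KO 16, against 3.09, 1.15 and 0.729 times in the controls, with control 9 highest.

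Hoxa4, which patterns the neck vertebrae, has the longest listed region of all Hox genes (mm9 chr6:52119461-52162666). The region held 38.18 and 119.09 tags in KO 13 and KO 16, against 14.55, 28.18 and 8.18 tags in control libraries 9, 10 and 12. Both KO libraries were above every control. Relative to the receptor rate it stood at 1.87 and 1.84 in KO 13 and KO 16, against 1.31, 1.65 and 1.21 in the controls, so both KO libraries were also above every control on that scale. The shorter listed regions of Hoxa4, Hoxa5 and Hoxa6 lie inside this stretch, cover 4.711 kb together and held 3 and 18 reads in KO 13 and KO 16, against 3, 7 and 2 reads in the controls. The remaining 38.495 kb held 39 and 113 reads in KO 13 and KO 16, against 13, 24 and 7 in the controls. Most reads of the Hoxa4 region thus lay outside the short gene regions, at 1.95 and 1.78 times the receptor rate in KO 13 and KO 16, against 1.19, 1.44 and 1.06 times in the controls.

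Among the other central genes, Hoxb6 (mm9 chr11:96161285-96162883), known from trunk and limb mesoderm, held 1.82 and 6.36 tags in KO 13 and KO 16, against 0.91, 1.82 and 0.91 tags in control libraries 9, 10 and 12. The level in KO 13 equals that of control 10. Hoxc8 (mm9 chr15:102821770-102824685), which patterns thoracic vertebrae and motor neurons of the forelimb, held 0.91 and 19.09 tags in KO 13 and KO 16, against 1.82, 2.73 and 0 tags in the controls. KO 13, on 1 read, lay among the controls and KO 16, on 21 reads, above them.

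Of the 8 Hox genes with the highest mean per kilobase over the 5 libraries, 4 were posterior genes of HoxA and HoxC. This ranking rests on KO 16. Without it, an alternative chosen after the values were seen, 4 of the 8 were kept, and 1 of the 8 was posterior. Hoxa9 (mm9 chr6:52174453-52176969), known for its role in blood stem cells and leukaemia, held 0.91 and 10.91 tags in KO 13 and KO 16, against 1.82, 4.55 and 0.91 tags in control libraries 9, 10 and 12. Hoxc9 (mm9 chr15:102808263-102814875), which sets the identity of thoracic motor neurons, held 7.27 and 38.18 tags in KO 13 and KO 16, against 0.91, 5.45 and 4.55 tags in the controls. Both KO libraries were above every control for Hoxc9, and Hoxa9 overlapped between the groups. Relative to the receptor rate Hoxc9 stood at 2.33 and 3.86 in KO 13 and KO 16, against 0.535, 2.09 and 4.41 in the controls, with control 12 highest. Hoxc10 (mm9 chr15:102798027-102802328), a gene of the lumbar spinal cord and hindlimb, held 4.55 and 19.09 tags in KO 13 and KO 16, against 2.73, 4.55 and 0.91 tags in the controls. KO 13 and control 10 were equal.

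Hoxc11 (mm9 chr15:102785757-102787132), which acts with the other genes of its paralogue number in the sacral region and the hindlimb, held 3.64 and 8.18 tags in KO 13 and KO 16, against 0.91, 1.82 and 0.91 tags in the controls. It had the highest mean per kilobase of the 36 Hox genes over the 5 libraries, at 2.25 tags. Its reads numbered 4 and 9 in KO 13 and KO 16, against 1, 2 and 1 in the controls. Relative to the receptor rate Hoxc11 stood at 5.61 and 3.97 in KO 13 and KO 16, against 2.57, 3.35 and 4.24 in the controls, and the groups overlap. Hoxc13 (mm9 chr15:102752362-102759245), the hair and nail gene with the longest region of HoxC, held 0.91 and 15.45 tags in KO 13 and KO 16, against 3.64, 4.55 and 0 tags in the controls. It was above background in none of the 5 libraries. Hoxd11 (mm9 chr2:74518415-74525073), needed with Hoxa11 for the forearm and the kidney, held 6.36 and 25.45 tags in KO 13 and KO 16, against 3.64, 4.55 and 3.64 tags in the controls. For Hoxd11 both KO libraries were above every control, on 7 and 28 reads in KO 13 and KO 16, against 4, 5 and 4 reads in the controls. Relative to the receptor rate it stood at 2.02 and 2.55 in KO 13 and KO 16, against 2.12, 1.73 and 3.51 in the controls, with control 12 highest.

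The other 24 Hox genes held between 0 and 6.36 tags in KO 13 and between 0.91 and 34.55 in KO 16, against 0 to 6.36 tags in control libraries 9 and 10 and 0 to 2.73 in control 12. Their medians were 1.36 and 6.36 tags in KO 13 and KO 16, against 1.82, 1.82 and 0 tags in the controls.

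The study compared KO with control glands, and by this comparison 0 of the 33 Hox genes tested passed an adjusted p under 0.05 in limma on log2(tags + 1). Nor did any of the 19313 genes tested (0.0%), and the lowest adjusted p of all was 0.0707. At an unadjusted p under 0.05, 4 Hox genes were found, Hoxa4, Hoxa6, Hoxb3 and Hoxc9, of which Hoxa6 is named for this p. Of all genes tested, 29.2% had such a p. The edgeR quasi-likelihood test with TMM factors, on recovered reads, kept Hoxa4 and Hoxb3 alone among the Hox genes and called 0 of 15644 genes (0.0%), with 455 at an unadjusted p under 0.05. With library totals in place of TMM factors the same test called both Hoxa4 and Hoxb3 (adjusted p = 0.015 each), where 20.0% of all genes were called, all but 1 of the 3121 higher. DESeq2 called 23 genes, all lower, and gave no adjusted p for any of the 36 Hox genes. The Hox genes Hoxc12, Hoxd1 and Hoxd8 had a mean under 1 tag and were not tested by limma.

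Direction was shared with genes at large. The fitted log2 change was above 0 for 32 of the 33 Hox genes and for 95.3% of all genes tested, and Hoxb5 was the exception at -0.40. Its median over the Hox genes was 1.21, against 0.97 over all genes, so that 18 of the 33 lay above the median gene. That count was 31 of 33 without KO 13, 7 of 26 without KO 16, 25 of 33 with TMM factors and 10 of 33 with a pseudocount of 5. In both KO libraries above every control were 7 of the 33 Hox genes, against 50.2% of all genes tested. KO 16 held the highest value for 31 of the 33, against 60.9% of all genes tested. Without KO 16, the median log2 change of the Hox genes was 0.37, which is 0.43 below that of the median gene, and without KO 13 it was 2.07. Scaling with TMM factors put it at 0.45, against 0.04 for all genes.

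Of the 12 genes given one by one, the largest log2 change was that of Hoxb3, at 2.34 ± 0.69 (SE, limma, adjusted p = 0.0707). Hoxc9 followed with 2.14 ± 0.82 (limma, adjusted p = 0.0865) and Hoxa4 with 2.09 ± 0.65 (limma, adjusted p = 0.0707). Changes of the other 9 ran from 0.62 ± 0.93 for Hoxa9 to 1.78 ± 0.95 for Hoxb1, with limma adjusted p from 0.186 to 0.614. Hoxa9 lay at -0.09 with TMM factors. Without KO 16 the changes of Hoxa9, Hoxc8 and Hoxc13 lay below 0, at -0.70, -0.20 and -0.63.

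On the scale of the receptor rate, which differs between libraries, the groups were mixed. The ratio of KO 16 lay within the range of the 3 controls for 24 of the 36 Hox genes, above all of them for 7 and below all for 5. Both KO libraries were above every control for 2 Hox genes and below every control for 4. The shares of all genes on this scale are not given, so these counts are not set against genes at large. Of 1140 genes in the authors' deposited table, 643 higher, 496 lower and 1 with a listed change of 0, 0 were Hox genes. Beside the 20097 genes listed in all, few of 36 genes would be among those 1140 at the same share. The 0 is therefore not read as a result about Hox genes.

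Genes around the Hox clusters and around Hox function were measured alongside. Of 9 listed TALE partners, 8 were above background in all 3 controls, where 57.8% of all genes were, and 8 in all 5 libraries. Meis3, a member of the list with a high level per kilobase, held 39.09 and 30.91 tags in KO 13 and KO 16, against 27.27, 24.55 and 13.64 tags in control libraries 9, 10 and 12. The Polycomb list, which holds repressors of the Hox clusters, had 14 of 14 genes above background in all 3 controls and 12 in all 5 libraries. Its Cbx2, which reads the histone mark of Polycomb, held 165.45 and 56.36 tags in KO 13 and KO 16, against 49.09, 57.27 and 65.45 tags in the controls. Ring1, a subunit of the ubiquitin ligase, held 25.45 and 20.91 tags in KO 13 and KO 16, against 13.64, 24.55 and 17.27 tags in the controls. Per kilobase the median Polycomb gene lay at 6.19 and 3.20 tags in KO 13 and KO 16, against 2.17, 4.55 and 3.94 in the controls. The median TALE gene lay at 1.89 and 2.91 in KO 13 and KO 16, against 1.07, 1.53 and 1.32 in the controls. Both medians were above the Hox median in each library but KO 16, where the TALE median was below it.

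Genes that switch Hox genes on were mixed. Of 10 listed upstream activators 4 were above background in all 3 controls, where 57.8% of all genes were, and 4 in all 5 libraries. The highest per kilobase were Mll1, a histone methyltransferase, and Rara, a retinoic acid receptor. Mll1 held 390.91 and 270.0 tags in KO 13 and KO 16, against 177.27, 303.64 and 270.91 tags in control libraries 9, 10 and 12. Rara held 150.91 and 129.09 tags in KO 13 and KO 16, against 58.18, 87.27 and 78.18 tags in the controls. Of 11 genes that flank the clusters, 6 were above background in all 3 controls, close to the 57.8% of all genes. Cbx5, the heterochromatin protein gene beside HoxC, held 1525.45 and 370.0 tags in KO 13 and KO 16, against 619.09, 973.64 and 972.73 tags in the controls. Smug1, a DNA repair gene on the same side, held 35.45 and 32.73 tags in KO 13 and KO 16, against 17.27, 34.55 and 19.09 tags in the controls.

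Noncoding genes inside the clusters were matched by name alone, and their listed regions are not all separate from those of Hox genes. Of 5 listed, 0 were above background in all 3 controls, where 57.8% of all genes were. Hoxa11as, on the strand opposite Hoxa11, held 0.91 and 13.64 tags in KO 13 and KO 16, against 2.73, 2.73 and 2.73 tags in the controls. The region listed as Mir615 held 1.82 and 9.09 tags in KO 13 and KO 16, against 2.73, 1.82 and 2.73 tags in the controls. At 2.622 kb the Mir615 region is far longer than a microRNA, and it lies between Hoxc6 and Hoxc4. The region listed as Mir10b, of 35.479 kb, overlaps that of Hoxd3. Levels of this list are therefore not independent of the Hox genes. All 6 ParaHox genes, the relatives of Hox genes outside the clusters, also missed the rule in at least 1 control. Gsx1 held 4.55 and 8.18 tags in KO 13 and KO 16, against 2.73, 0.91 and 0.91 tags in the controls, and Gsx2 held 1.82 and 10 tags in KO 13 and KO 16, against 0, 0.91 and 0 tags in the controls.

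**Figure D5:**
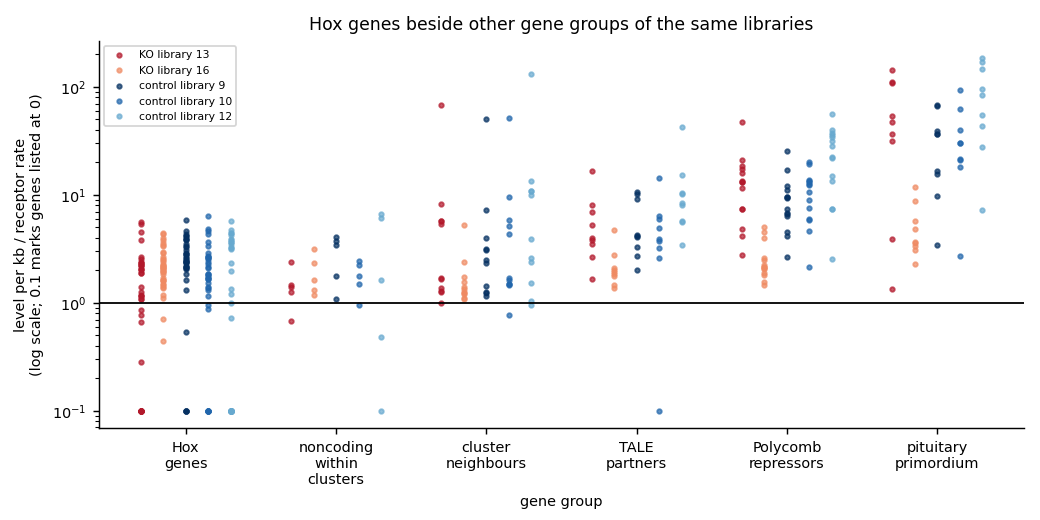
Level per kilobase of each gene divided by the receptor rate of its library (log axis, genes listed at 0 drawn at 0.1), for the Hox genes and 5 lists of genes, with libraries KO 13 and KO 16 left of control 9, 10 and 12 in each list. The line at 1 is the receptor rate. No Hox gene exceeds 6.37 times that rate, the value of Hoxb5 in control 10. The 9 pituitary primordium genes lie above the rate in each library, although in KO 13 8 of 9 pass the background rule.

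Tissues that do express Hox genes could be present in a dissected gland, and markers of hindbrain and trunk were read in the same libraries. The hindbrain list also holds genes of the isthmus, so not every gene of these lists marks tissue with Hox expression. Of 9 hindbrain and isthmus markers 1 was above background in all 3 controls, where 57.8% of all genes were, and 0 in all 5 libraries. Fgf8, also a signal of the diencephalon below which the pituitary forms, held 5.45 and 12.73 tags in KO 13 and KO 16, against 9.09, 10 and 6.36 tags in control libraries 9, 10 and 12. Ptf1a and Lbx1 were listed at 0 in KO 13 and, with Egr2, in control libraries 9 and 12. The summed level of the 9 was 26.4 and 68.2 tags in KO 13 and KO 16, against 26.4, 30.0 and 16.4 tags in the controls. Markers of trunk and limb numbered 1 of 10 above background in all 3 controls and 1 in all 5 libraries. Tbx6 held 5.45 and 8.18 tags in KO 13 and KO 16, against 1.82, 6.36 and 3.64 tags in the controls, and Meox1 held 20.91 and 53.64 tags in KO 13 and KO 16, against 11.82, 15.45 and 9.09 tags in the controls. Their summed level was 119.1 and 399.1 tags in KO 13 and KO 16, against 60.0, 107.3 and 38.2 tags in the controls. Background is not taken off in the sums of either list. Pooled per kilobase, the trunk and limb markers held 0.810 and 2.71 tags in KO 13 and KO 16, against 0.408, 0.730 and 0.260 in the controls. The receptor genes held 0.472 and 1.50 in KO 13 and KO 16, against 0.257, 0.395 and 0.156 in the controls. KO 16 was thus highest for the receptor genes too. Uncx was listed at 0 in control libraries 9 and 10, and Pitx3 in control 12. The part of such cells in the Hox reads was not tested.

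Markers of other cell types of the gland were read in the same way. Of 11 listed markers of head neural crest mesenchyme, which is Hox-free in front of the hindbrain, 7 were above background in all 3 controls, with Foxc1 and Twist1 highest per kilobase. So were 8 of 8 endothelial markers, with Cldn5 and Cdh5 highest per kilobase, and 3 of 6 leukocyte markers, with Csf1r and Cx3cr1 highest. Of 6 erythroid markers 2 were, Hba-x and Alas2, the second named after its values were seen, while Hbb-y, next to Hba-x per kilobase, was not. Of all genes 57.8% were above background in all 3 controls, so that the counts of mesenchyme, erythroid and leukocyte markers do not stand out. These 13 lists hold 106 different genes, of which limma tested 104 and called 0, with 28 at an unadjusted p under 0.05. With edgeR and TMM factors 0 of 75 were called, and with edgeR and library totals 17 of 75, all higher, where 20.0% of all genes were called. DESeq2 called 0 of the 106 and gave no adjusted p for 99 of them.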

How the data were processed

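RNA of 5 embryonic pituitaries was measured, 2 KO and 3 control. Per the labels' protocols, total RNA was freed of ribosomal RNA with Ribo-Zero and made into strand-specific ScriptSeq v2 libraries. Bowtie2, HOMER, edgeR and the build mm9 are listed, without roles or versions, in the submitters' processing notes. The signal that the authors deposited is, per the file headers, tags scaled to a total of 10000000 over gene regions that include introns. Each region carries a plus strand, and reads of an antisense or overlapping gene cannot be separated from those of the gene named. All values (100.0%) were whole multiples of 1 read within 0.01 reads, for 11000000 total tags a library. Control libraries differed by more than counting noise (at least 11.0 for chi-square over degrees of freedom). The authors' deposited table of changed genes, with a log2 fold change, a linear fold (ratio), a p-value and a score per genotype, was used only to look up Hox genes.

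The test was limma (version 3.58.1, under R 4.3.3), with a mean-variance trend, on log2(tags + 1), over genes with a mean of at least 1, Benjamini-Hochberg adjusted at 0.05. Such changes understate those of low genes. Genes were described one by one by a rule: above background in all 3 controls or both KO libraries, among the 8 highest mean tags per kilobase, past the threshold, or the longest region of a cluster. Of each other list the 2 highest genes per kilobase were named, apart from a few that are not reported here. The genes, lists and tests were chosen with earlier results of these data known. Alternatives were edgeR 4.0.16, DESeq2 1.42.0, pseudocounts, filters, TMM factors, background subtraction, other background rates and leaving out each library. Transcript GC content came from the GENCODE GRCm38 transcripts (36 of 36 Hox genes matched). The tests were checked on simulated data.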

Additional observations from a re-analysis of the deposited data

How the results depend on the processing

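No paired analysis was possible because the groups share no replicate numbers, so no replicate block could be fitted. The count of Hox genes above background depended on the margin. With a margin of 2 times the receptor rate it was 0 and 3 in KO 13 and KO 16, against 0, 1 and 0 in control libraries 9, 10 and 12, and 0 in both KO libraries together. With a 99% interval it was 3 in KO 13, against 1, 1 and 0 in the controls, and 2 in both KO libraries. With the kallikrein rate, chosen after the values were seen, it was 0 and 2 in KO 13 and KO 16, against 0, 1 and 0 in the controls, and 0 in both KO libraries. The 10th percentile of regions of like length as the rate gave 7 in control 12. Shares of all genes at these settings are not given, so the counts are not set against genes at large. For the KO group, the count ran from 6 without KO 16 to 17 without KO 13. The count of changed Hox genes was 0 with limma and 2 with edgeR and library totals. The ratio of all Hox regions was 0.764 and 0.974 in KO 13 and KO 16, against 0.950, 0.906 and 0.726 in the controls, with the kallikrein rate, and 3.08 in control 12 with the 10th percentile. The change of Hoxa9 was -0.09 with TMM factors. Leaving out 1 library, the changes ran from -0.70 to 1.94 for Hoxa9, from -0.20 to 3.20 for Hoxc8 and from -0.63 to 2.48 for Hoxc13, lowest without KO 16 each time. Such a fit with 1 KO library takes its spread from the controls. In 135 other recomputed changes of the genes given one by one, direction and side of the threshold were the same, and in 12 more, from DESeq2, direction was the same and no adjusted p was given. The cause of these shifts was not tested. Depth limits what can be said of Hox genes with few reads, since 3 reads are allowed by a count of 0.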
